A study of Mus musculus with 3 samples.

Results

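The epicardium is the mesothelial sheet that covers the heart, and 10 genes that mark it in the embryo were followed here: Wt1, Tbx18, Tcf21, Aldh1a2, Upk3b, Upk1b, Msln, Krt8, Krt18 and Krt19. They were chosen by name, as textbook markers, and were not ranked by a measured value, but earlier results of these data were known at the time. Each was found by its gene symbol among the 41174 gene probes of a two-colour Agilent whole-mouse-genome array, where they were read by 12 probes on 21 spots: Tbx18 and Krt8 had 2 probes each, Wt1 had 1 probe on 10 spots, and the others had 1 probe and 1 spot. In all, 18992 genes had a probe that could be tested. Hearts of C57BL/6 mouse embryos at embryonic day 15.5 were compared on 3 arrays, the 3 replicates. By the labels, on each array RNA pooled from 2 Lrrc10-/- hearts carried the red dye Cy5, and RNA pooled from 2 hearts of wild-type littermates (Lrrc10+/+) carried the green dye Cy3. The Lrrc10 protein, which has leucine-rich repeats, is made by cardiomyocytes, so the comparison asks what its loss does to transcripts of a neighbouring cell layer. The dyes were never exchanged, so that genotype and dye cannot be told apart on any array. The labels call the wild-type RNA a reference pool, but the Cy3 signals of sex-linked and liver genes given below show that it was not the same RNA on each array. The wild-type labels also hold an entry with an adult age beside the embryonic one, and the embryonic age, which all other entries give, was taken.

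Epicardial cells are polarised epithelial cells on the outer surface of the heart, held together by junctions and filled with simple-epithelial keratins. Some of them undergo an epithelial-mesenchymal transition, move into the muscle wall and become fibroblasts and vascular smooth muscle. The transcription factors Wt1, Tbx18 and Tcf21 are used to mark the sheet and its descendants, Aldh1a2 makes the retinoic acid through which the epicardium signals to the growing muscle, and Upk3b, Upk1b, Msln and the keratins are shared with the mesothelium of the other body cavities.

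The arrays measure a gene only through a 60-base probe, and the stretches below show, for the genes on which the results turn, which part of each transcript was read. They are the first 30 bases of each probe, written 5′ to 3′ in the sense of the transcript, with positions of those bases in mm9. Both Tbx18 and both Krt8 probes are shown because the probes of these genes gave unlike values, and Krt18 because its protein pairs with that of Krt8. The capitals mark the longest run that any 2 of the 12 probes had in common over their full length, 11 bases shared by a Krt8 and the Krt18 probe. In the 66 pairs of probes the next longest shared run was 8 bases and the median was 6.0.
Wt1 (A_52_P673458, chr2:105013428-105013457, plus strand): cactggtaagactgttcttaagtaacttaa
Tcf21 (A_51_P459944, chr10:22537593-22537622, minus strand): ttatggtggccggcaaaccagagaatgacc
Tbx18 (A_51_P438711, chr9:87599544-87599573, minus strand): gtgcagaagctggttaaatcttagtatatt
Tbx18 (A_52_P279263, chr9:87599781-87599810, minus strand): tccagaataatcagactctaaaagtaaaat
Krt8 (A_51_P242399, chr15:101827376-101827405, minus strand): TGGTGTCCGAGtcttctgatgtcgtgtcca
Krt8 (A_51_P242400, chr15:101827244-101827273, minus strand): ccgaggatcagccctaatcctctggccaac
Krt18 (A_51_P324814, chr15:101862341-101862370, plus strand): ggatggcagagTGGTGTCCGAGactaatga
The GC content of the 12 full probes lay between 35.0% and 55.0%, and 40.0% was the median over all gene probes.

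Some facts of the whole series touch every value that follows. The targeted gene went against the labels: on 3 of 3 arrays Lrrc10 had more signal in the Cy5 channel, which is labelled Lrrc10-/- (mean log2 ratio 4.41, adjusted p = 0.000387, limma), so groups are called here by how their channel is labelled, and every direction is Cy5 over Cy3. The processed signals of Lrrc10 on replicates 1, 2 and 3 were 6294, 8521 and 12637 in Cy5, against 281, 237 and 200 in Cy3. Whether the channels were exchanged, or whether the probe lies outside the deleted part of the gene, was not tested. If the channels were exchanged, every direction given here is reversed between the genotypes. Replicate 3 stood apart, with 63.9% and 69.3% of gene spots well above background in Cy5 and Cy3, against 82.4% to 93.2% on the other arrays. The pools also differed in sex: the Y-linked gene Eif2s3y had processed signals of 3447, 2644 and 7504 in Cy5 on replicates 1, 2 and 3, against 2393, 14.7 and 7.24 in Cy3, and the log2 ratios of Xist, the RNA that silences an X chromosome in females, were -0.30, -0.25 and -2.71. On replicates 1 and 2 the log2 ratio depended on the place of a spot: after normalization, the median over gene spots went from 0.24 and 0.19 in rows 1 to 54 of 532 to -0.18 and -0.15 in rows 480 to 532, while on replicate 3 it stayed between -0.0034 and 0.015. Values with this row trend removed are given below beside some of the results. A result without such a value may also have moved with the trend. The part of sex, replicate quality and row in the results below was not tested except where such a value stands beside them.

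All 10 genes were detected, and none passed the test. Each of the 12 probes was well above background in both channels on all 3 arrays, none was saturated, and processed signals ranged from 283 (Tbx18) to 13130 (Msln). Of the 12 probes, 0 were called higher and 0 lower at an adjusted p under 0.05 (limma, against a log2 ratio of 0), where 1.39% of the 28330 tested probes were called higher and 0.00353% lower. Without adjustment, limma's p was under 0.05 for 0 of the 12 in either direction, beside 9.07% of all tested probes on the higher and 4.26% on the lower side, and the methods' t-test gave 0 of the 12, beside 9.29%. Mean log2 ratios ran from -0.19 (Msln) to 0.43 (Tcf21). Their 95% confidence intervals reached from -0.60 to 0.90, which leaves room for differences of up to 1.52-fold lower and 1.86-fold higher in the channel labelled Lrrc10-/-. The median over the 10 genes, with 1 probe a gene, was 0.0084, beside 0.028 over all 18992 genes, with 5 genes above 0 and 5 below. The sign of this median was not stable: it was -0.13 without replicate 3, 0.07 without replicate 1, -0.08 in the software's ratios and -0.03 with the row trend removed. In whole-heart RNA, fewer epicardial cells and less RNA per epicardial cell cannot be told apart.

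**Figure D1:**
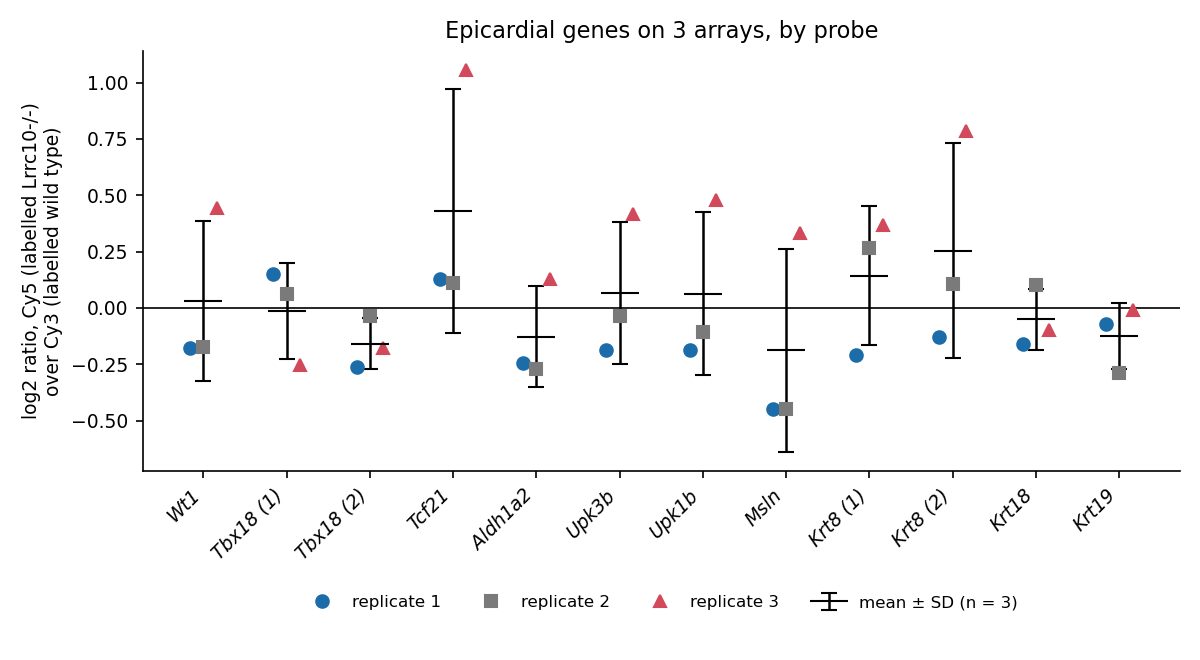
Log2 ratio of Cy5 (labelled Lrrc10-/-) over Cy3 (labelled wild type) for the 12 probes of the epicardial genes, 1 point per array, with the mean and SD of 3 arrays as black bars. Tbx18 (1) is A_51_P438711, Tbx18 (2) is A_52_P279263, Krt8 (1) is A_51_P242399 and Krt8 (2) is A_51_P242400. Replicate 3 is the highest point for Wt1, Tcf21, Aldh1a2, Upk3b, Upk1b, Msln, both Krt8 probes and Krt19, with Tcf21 at 1.06 and Krt19 at -0.01. Both Tbx18 probes, Krt18 and Krt19 stay between -0.29 and 0.15 on all arrays.

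Of the transcription factors, Wt1 (a zinc finger protein that keeps the epicardium able to give rise to mesenchyme) had the best measured ratio, since its probe (chr2:105013428-105013487, mm9) was printed 10 times. On replicates 1, 2 and 3 the processed Cy5 signal was 1343, 1335 and 2039, against a Cy3 signal of 1558, 1529 and 1410. The Cy3 channel was thus the brighter one on the first 2 arrays and the Cy5 channel on the third, and the ranges of the channels overlapped. Log2 ratios were -0.18, -0.17 and 0.44. Their mean was 0.03 ± 0.36 (SD, n = 3; adjusted p = 0.953, limma). On replicate 3 the 10 spots lay between 0.36 and 0.51 (SD 0.060), whereas they lay between -0.45 and 0.24 (SD 0.24) on replicate 1 and between -0.40 and 0.03 (SD 0.16) on replicate 2. On replicates 1 and 2 the Wt1 spots followed the rows: from row 67 to row 431 the ratio went from 0.24 to -0.45 and from 0.03 to -0.38. With the row trend removed, the SD among spots fell to 0.12 and 0.075 on those arrays, and the array means were -0.16, -0.17 and 0.44. In the ratios of the scanner software, which removes spatial trends itself, the 10 spots of replicate 3 lay between 0.48 and 0.63 and those of replicates 1 and 2 between -0.31 and -0.11.

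**Figure D2:**
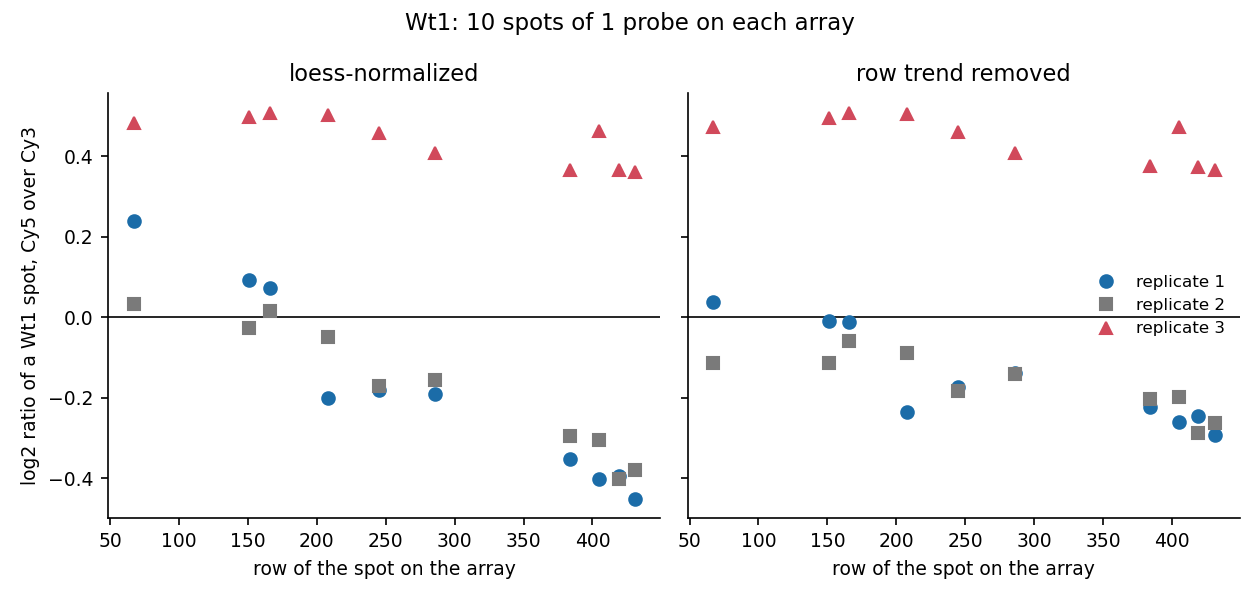
Log2 ratio of each of the 10 Wt1 spots (vertical axis) by the row in which it was printed (horizontal axis, from 1 at the top of the array), per array, as normalized by loess on the left and with the row trend of all gene spots removed on the right. On replicates 1 and 2 the spots descend with the row in the left panel and less so in the right one, and the spots of replicate 3 stay above those of the other arrays in both panels.

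Tcf21 (a basic helix-loop-helix factor of epicardial cells on their way to fibroblasts) had the largest mean of the 12 probes. Its probe (chr10:22537563-22537622, mm9) gave processed signals of 1487, 1220 and 3967 in Cy5 and 1564, 1239 and 1815 in Cy3. The channels were alike on replicates 1 and 2 and 2.08-fold apart on replicate 3 after normalization. Log2 ratios were 0.13, 0.11 and 1.06, above 0 on 3 of 3 arrays, as for 19.1% of all tested probes, but -0.07 and -0.02 on replicates 1 and 2 in the ratios of the software. The mean was 0.43 ± 0.54 (SD, n = 3). The 95% interval ran from -0.03 to 0.90, with an unadjusted p of 0.0643 and an adjusted p of 0.407 in limma. Without the row trend the ratios were 0.01, 0.02 and 1.05, so that only the ratio of replicate 3 was far from 0.

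Tbx18 (a T-box factor of the proepicardium, the outgrowth from which the sheet forms) was the transcription factor that did not share the higher ratio of replicate 3. The brighter probe, A_51_P438711 (chr9:87599514-87599573, mm9), had processed signals of 1849, 1702 and 3067 in Cy5 and 1866, 1781 and 3806 in Cy3. Its log2 ratios were 0.15, 0.06 and -0.25, with replicate 3 the lowest (in the software's ratios -0.01, -0.07 and -0.31), and the mean was -0.01 ± 0.21 (SD, n = 3; adjusted p = 0.976, limma). The second probe, A_52_P279263 (chr9:87599751-87599810, mm9), reads a nearby stretch of the same gene and gave signals of 402, 283 and 391 in Cy5 and 516, 313 and 487 in Cy3. It was below 0 on 3 of 3 arrays (-0.26, -0.04 and -0.18), as were 17.4% of all tested probes, with a mean of -0.16 ± 0.11 (SD, n = 3; adjusted p = 0.606, limma). After loess the probes of this 1 gene thus lay on opposite sides of 0 on replicates 1 and 2 and on the same side on replicate 3, whereas in the software's ratios both were below 0 on all 3 arrays (-0.36, -0.15 and -0.32 for the second). With the row trend removed the brighter probe was at 0.06, -0.02 and -0.25 (mean -0.07) and the second at -0.24, -0.04 and -0.17.

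The retinoic acid enzyme Aldh1a2 (chr9:71143931-71143990, mm9) had processed signals of 2723, 2190 and 5098 in Cy5 and 3158, 2773 and 4646 in Cy3. The Cy5 channel was the dimmer one on replicates 1 and 2 and the brighter one on replicate 3, with log2 ratios of -0.24, -0.27 and 0.13. The mean was -0.13 ± 0.22 (SD, n = 3; adjusted p = 0.716, limma). Of 17 other genes of retinoic acid synthesis, transport, breakdown and reception, 15 were tested, 0 were called in either direction, and their median was 0.11. Before adjustment, limma's p was under 0.05 for 9.07% of all tested probes on the higher and 4.26% on the lower side. Of the 15 genes it was so for 4 higher and 1 lower, or for 3 and 0 with the row trend removed. Those furthest from 0 in 1 direction on all arrays were Rdh10, which makes the aldehyde that Aldh1a2 oxidises (0.53, 0.46 and 0.29; adjusted p = 0.193, limma), Dhrs3, which turns that aldehyde back into retinol (0.34, 0.37 and 0.44; adjusted p = 0.218), the binding protein Crabp1 (0.33, 0.28 and 0.33; adjusted p = 0.302) and the receptor Rxra (-0.31, -0.25 and -0.30; adjusted p = 0.338). The other probes of Rdh10 (means -0.04 and -0.14) and the other probe of Dhrs3 (-0.28) lay on the other side of 0. The receptor gene Rarg is not among these because the probe that stands for it was at 0.60, -0.14 and -0.04. Its other tested probe, A_52_P26409, was further from 0 than those named, at 0.52, 0.62 and 0.50 (adjusted p = 0.0871, limma). The Dhrs3 ratios were 0.06, 0.16 and 0.44 and those of Rxra -0.16, -0.14 and -0.30 with the row trend removed. On replicate 3 the median of these 15 genes was -0.04 and 6 of them were above 0, so they did not share the higher ratios of Aldh1a2 and most of the other epicardial genes on that array.

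The genes of surface proteins all had their highest ratio on replicate 3. Upk3b and Upk1b encode uroplakins, membrane proteins first known from the lining of the bladder, and Msln encodes mesothelin, an anchored glycoprotein of mesothelial cells. Upk3b (chr5:136520522-136520581, mm9) had signals of 1350, 605 and 1806 in Cy5 and 1636, 683 and 1285 in Cy3, and log2 ratios of -0.19, -0.03 and 0.42. Upk1b (chr16:38773859-38773918, mm9) had signals of 450, 372 and 878 in Cy5 and 627, 439 and 579 in Cy3, and log2 ratios of -0.18, -0.10 and 0.48. For both, the Cy3 channel was brighter on replicates 1 and 2 and the Cy5 channel on replicate 3. Their means were 0.07 ± 0.31 and 0.06 ± 0.36 (SD, n = 3; adjusted p = 0.884 and 0.900, limma), and without replicate 3 both means were below 0, at -0.11 and -0.14. Their means were 0.03 and 0.00031 with the row trend removed.

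Msln (chr17:25885569-25885628, mm9), the gene with the strongest signals of the 10, had 5669, 3926 and 13130 in Cy5 and 7879, 5620 and 11138 in Cy3. Its ratios of -0.45 and -0.45 on replicates 1 and 2 were the lowest of all 12 probes on those arrays, corresponding to 1.36-fold less in the channel labelled Lrrc10-/-, and the ratio of 0.33 on replicate 3 was 1.26-fold more. The mean of -0.19 ± 0.45 (SD, n = 3; adjusted p = 0.687, limma) is therefore that of arrays on opposite sides of 0. Among all tested probes, the Msln ratio stood at percentile 6.38 on replicate 1, 1.91 on replicate 2 and 84.9 on replicate 3.

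Of the 4 other uroplakins, 3 were tested, and Upk1a was the 1 gene of any list to be called. Its probe A_52_P166330 had log2 ratios of 1.15, 1.82 and 0.98, a mean of 1.32 ± 0.45 (SD, n = 3) and an adjusted p of 0.0220 (limma). In linear terms it was 2.49-fold higher in the channel labelled Lrrc10-/-. Its other probe gave a mean of 0.46, and the call was lost in 7 alternative settings, kept in 6, and lost without replicate 1 or replicate 2. With the row trend removed the adjusted p was 0.0481. Upk3b and Upk1b, the uroplakins among the epicardial genes, were below 0 on replicates 1 and 2, where Upk1a was highest above it. On replicate 3 all 3 tested genes of the other uroplakins were above 0, as Upk3b and Upk1b were, and their median was 0.81.

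The keratins had unlike ratios on replicate 3. Krt8 and Krt18 encode the type II and type I chains that pair in the filaments of simple epithelia, and Krt19 a further type I chain. Krt8 was read by A_51_P242399 (chr15:101827346-101827405, mm9), with signals of 843, 591 and 897 in Cy5 and 1194, 551 and 654 in Cy3, and by A_51_P242400 (chr15:101827214-101827273), with 1646, 1256 and 2688 in Cy5 and 1532, 1029 and 1315 in Cy3. Their log2 ratios were -0.21, 0.27 and 0.37 for the first and -0.13, 0.10 and 0.79 for the second. Both probes were below 0 on replicate 1, above 0 on replicates 2 and 3 and highest on replicate 3, except that in the software's ratios the second was at 0.10 on replicate 1. The means were 0.14 ± 0.31 and 0.25 ± 0.48 (SD, n = 3; adjusted p = 0.716 and 0.590, limma). The probes were printed far apart, in rows 109 and 527. With the row trend removed their means moved away from each other, to 0.05 and 0.38, and the second was above 0 on 3 of 3 arrays (0.08, 0.25 and 0.80; adjusted p = 0.544, limma).

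Krt18 (chr15:101862341-101862400, mm9) had signals of 4420, 3925 and 7620 in Cy5 and 5138, 4046 and 8620 in Cy3. Its log2 ratios of -0.16, 0.10 and -0.10 stayed near 0 (replicate 2 was at -0.04 in the software's ratios), with a mean of -0.05 ± 0.14 (SD, n = 3; adjusted p = 0.892, limma), and on replicate 3 it did not share the higher ratios of its partner Krt8. With the row trend removed the Krt18 ratios were -0.22, 0.04 and -0.10 and the mean was -0.09. Krt19 (chr11:100002392-100002451, mm9) had signals of 1150, 858 and 1395 in Cy5 and 1645, 1269 and 1524 in Cy3. It was below 0 on 3 of 3 arrays (-0.07, -0.29 and -0.01), with a mean of -0.12 ± 0.15 (SD, n = 3; adjusted p = 0.702, limma). The Krt19 probe was printed in row 32, near the top edge, and the row trend moved it the most: with the trend removed the ratios were -0.32, -0.47 and -0.02 and the mean was -0.27 (adjusted p = 0.595, limma).

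**Figure D3:**
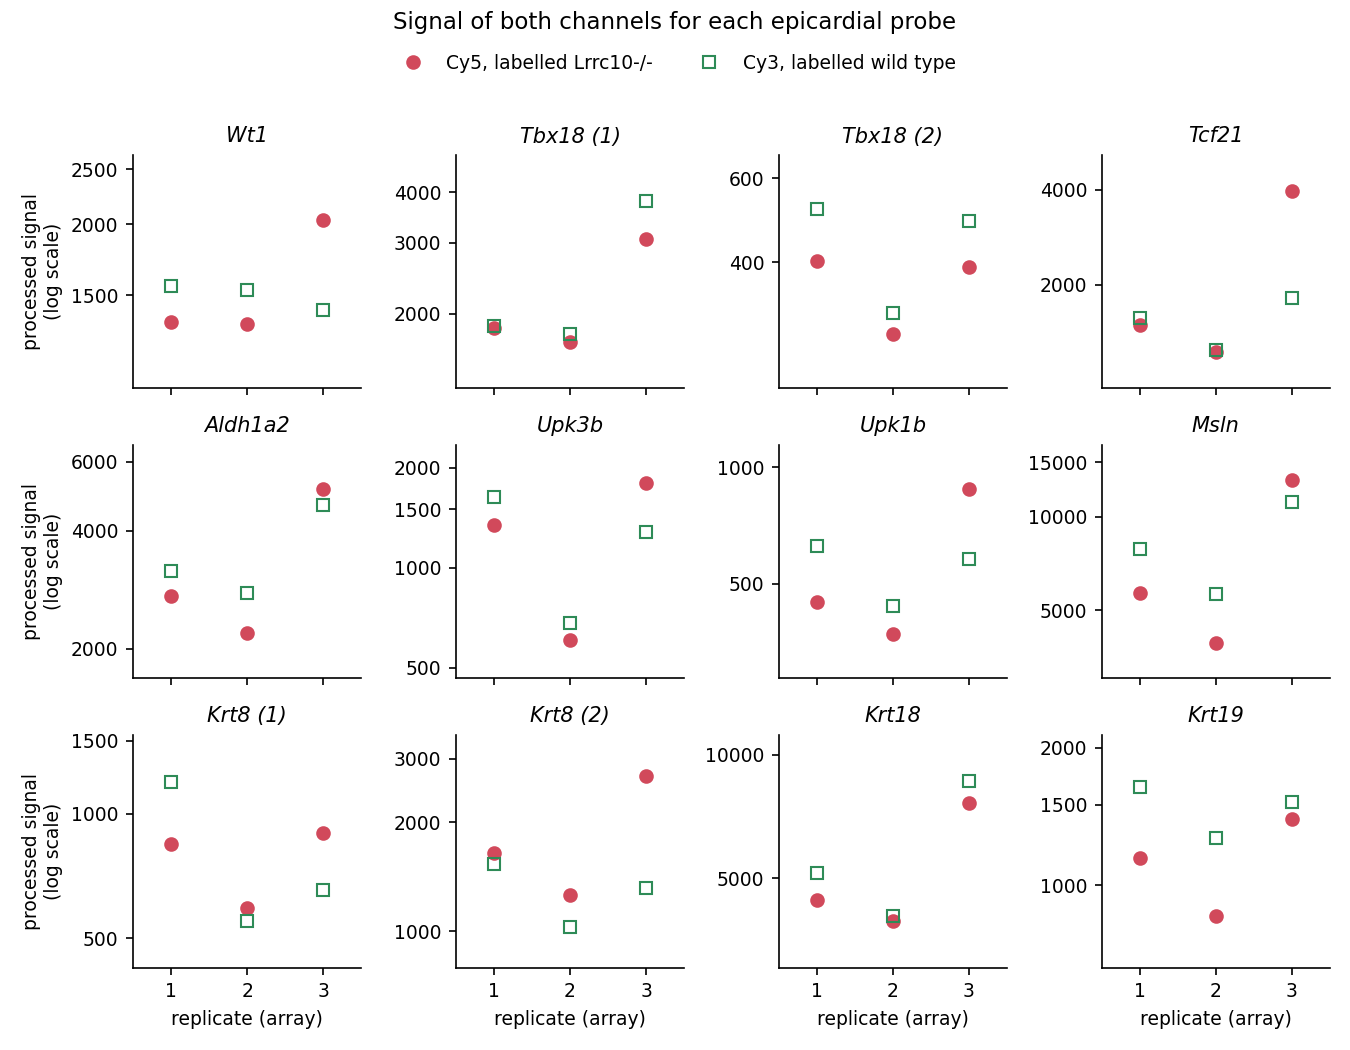
Processed signal (vertical axis, log scale, set for each panel) of Cy5, labelled Lrrc10-/- (filled circles), and Cy3, labelled wild type (open squares), for each of the 12 probes on replicates 1, 2 and 3 (horizontal axis). The filled circle is below the open square on replicates 1 and 2 and above it on replicate 3 for Wt1, Tcf21, Aldh1a2, Upk3b, Upk1b and Msln, and below it on all 3 arrays for both Tbx18 probes, Krt18 and Krt19.

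On replicate 3 the ratios of most epicardial genes stood above those of the rest of the array. Of the 10 genes, 2, 4 and 7 were above 0 on replicates 1, 2 and 3, and their medians were -0.17, -0.07 and 0.37. In the software's ratios 1, 1 and 7 of the genes were above 0. With the row trend removed 3, 3 and 7 were, with medians of -0.23, -0.12 and 0.38. The medians of all 18992 genes were 0.02, 0.04 and 0.02, with 52.6%, 55.6% and 52.7% above 0. On replicate 3, 6 of the 10 genes lay above the upper quartile of all genes, and 0 did on each of the other arrays. The genes not above 0 there were Tbx18, Krt18 and Krt19. Against the mean of replicates 1 and 2, replicate 3 was higher by 0.94 for Tcf21, 0.80 for Krt8 (A_51_P242400), 0.78 for Msln, 0.62 for Upk1b, 0.62 for Wt1, 0.53 for Upk3b, 0.39 for Aldh1a2 and 0.34 for Krt8 (A_51_P242399). The same difference placed these 8 probes between percentiles 84.8 and 98.8 of all tested probes. For Tbx18 (A_51_P438711) the difference was -0.36. The number of genes above 0 on replicate 3 was 7 in the ratios of the software, without background correction, with median centring, with scaling between arrays and with the row trend removed, and the median lay between 0.25 and 0.57. Since each array held 1 pool of each label, whether these genes differ between pools or between arrays cannot be told apart.

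**Figure D4:**
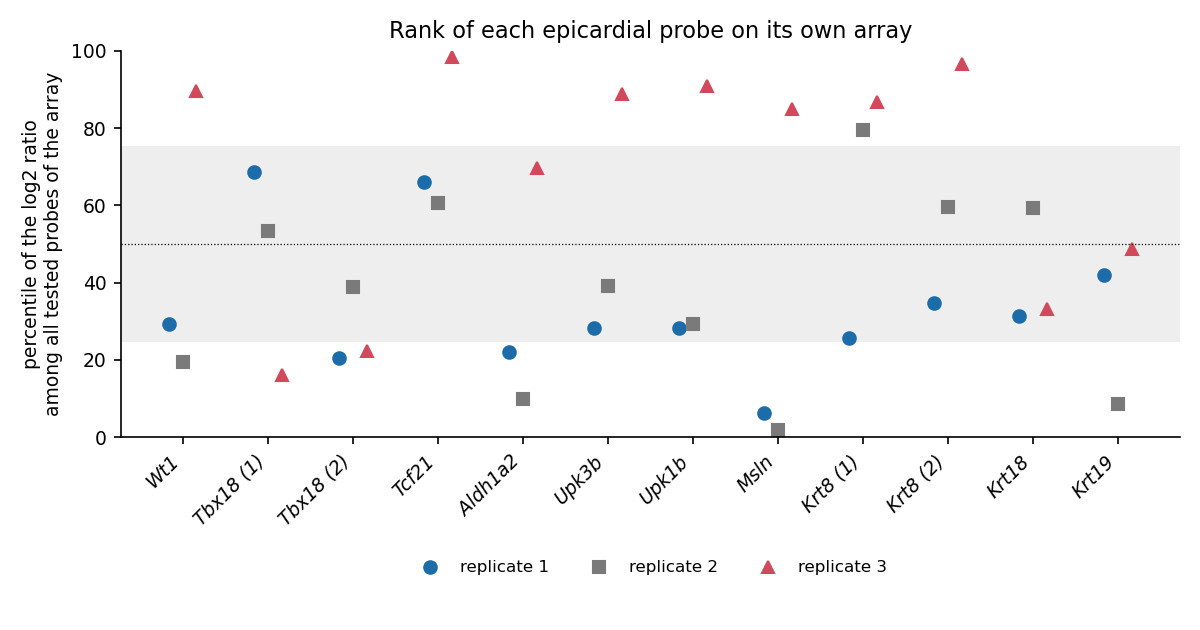
Percentile of each probe's log2 ratio among the 28330 tested probes of the same array (vertical axis), with the middle 50% of probes shaded. On replicate 3 the probes of Wt1, Tcf21, Upk3b, Upk1b, Msln and Krt8 stand at percentiles from 84.9 to 98.3, and on replicate 1 the highest probe, Tbx18 (1), stands at 68.7.

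The levels of the single channels, on the log2 scale after scaling between arrays, were set beside the processed signals, and which channel stood out on replicate 3 could depend on the scaling. The Cy5 level of Wt1 was 10.67, 10.55 and 10.58 on replicates 1, 2 and 3, and the Cy3 level was 10.85, 10.72 and 10.14. On this scale the channel labelled wild type was low on replicate 3, whereas in the processed signals given above the channel labelled Lrrc10-/- was high there. Tcf21 was at 11.05, 10.57 and 11.55 in Cy5 and at 10.92, 10.46 and 10.50 in Cy3. For Tcf21 the channel labelled Lrrc10-/- was high on replicate 3 on both scales. Msln had Cy5 levels of 12.90, 12.22 and 13.19 and Cy3 levels of 13.34, 12.67 and 12.86, with replicate 2 the lowest in both. The Cy5 and Cy3 ranges over the 3 arrays overlapped for each of the 12 probes. These ranges leave out the pairing of channels within an array, and the share of all tested probes that overlap was not counted. These single-channel levels carry the dye and the array with them and were not tested.

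Other genes of the sheet and of its neighbours were set beside these 10 as lists, described by counts. Of 17 other epicardial and mesothelial genes, 16 were tested and 0 were called in either direction. Beside 9.07% of all tested probes on the higher and 4.26% on the lower side, limma's p before adjustment was under 0.05 for 0 of the 16 (2 lower with the row trend removed). Their median was -0.08, 2 of 16 means were above 0, and the medians on replicates 1, 2 and 3 were -0.25, -0.13 and 0.02, the order seen for the 10 epicardial genes with a smaller step to replicate 3. The furthest from 0 among those in 1 direction were the zinc finger gene Bnc1 (-0.69, -0.29 and -0.01), the matrix gene Efemp1 (-0.33, -0.42 and -0.06), the membrane mucin gene Muc16 (-0.01, -0.25 and -0.43) and Scx, a factor of tendon and proepicardial cells (-0.21, -0.20 and -0.21), with adjusted p between 0.411 and 0.499 (limma). The mean of Scx went from -0.21 to -0.12 with the row trend removed.

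Of 13 genes of epicardium-derived cells and of epithelial-mesenchymal transition, all 13 were tested and 0 were called, while limma's p before adjustment was under 0.05 for 2 higher genes and 1 lower gene, or 0 and 1 with the row trend removed. Over all tested probes the shares were 9.07% higher and 4.26% lower, and no such share is given with the row trend removed. The fibroblast proteoglycan gene Dcn was below 0 on all arrays (-0.54, -0.22 and -0.55; adjusted p = 0.205, limma), and the cadherin gene Cdh2 above 0 (0.21, 0.33 and 0.68; adjusted p = 0.263, limma). With the row trend removed Dcn was at -0.34, -0.08 and -0.54 and Cdh2 at 0.05, 0.21 and 0.67 (adjusted p = 0.514 and 0.604, limma). The median of these 13 on replicate 3 was -0.23, on the other side of 0 from the epicardial genes. Of 15 genes of other epithelia, 12 were tested and 0 called. Beside the same shares of all tested probes, limma's p before adjustment was under 0.05 for 3 higher genes of the 12 and 0 lower ones. Their median was 0.12, or 0.0048 with the row trend removed. On replicate 3 it was 0.18 and 9 of the 12 were above 0, the side on which most of the epicardial genes lay there. Grhl2, a regulator of epithelial junctions, was at 0.34, 0.66 and 0.45 (adjusted p = 0.158, limma) and the basal keratin Krt14 at 0.47, 0.44 and 0.44 (adjusted p = 0.156, limma). With the row trend removed Grhl2 was at 0.12, 0.50 and 0.44 and Krt14 at 0.38, 0.35 and 0.44 (adjusted p = 0.433 and 0.253, limma). In the software's ratios Grhl2 was at 0.0093 on replicate 1. Another basal keratin, Krt5, lay on the other side of 0 (-0.38, -0.43 and -0.05; adjusted p = 0.396, limma). Of the 12 means, 8 were above 0 and 4 below.

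Markers of the organs next to the heart were read to see what a dissected heart could carry with it. Of 6 lung epithelium genes, 0 were tested, because none was well above background in a channel on all 3 arrays. Of 7 liver genes, 4 were tested and 0 called, but their summed processed signals swung from 22016 to 1478 and 1504 in Cy5 and from 12677 to 24683 and 800 in Cy3 on replicates 1, 2 and 3. The median log2 ratio of these 4 genes was 0.76, -2.04 and 0.13 on replicates 1, 2 and 3. The part of carried-over tissue in the epicardial ratios was not tested. Apoa2, a plasma apolipoprotein gene, was at -0.0035, -0.998 and -0.14 (adjusted p = 0.459, limma), and on replicate 1 it turned to 0.14 with the row trend removed and to 0.23 in the software's ratios. All 10 cardiomyocyte genes were tested and 0 called. Of these, 6 were saturated in both channels on at least 2 arrays, and their ratios have no fold. Nkx2-5, a cardiac transcription factor that was not saturated, was at -0.29, -0.07 and -0.04 (adjusted p = 0.673, limma), and at -0.12, 0.05 and -0.03 with the row trend removed. Tnni3, a thin filament gene, was saturated in Cy5 on 3 arrays and in Cy3 on 2, so no direction is given for it.

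**Figure D5:**
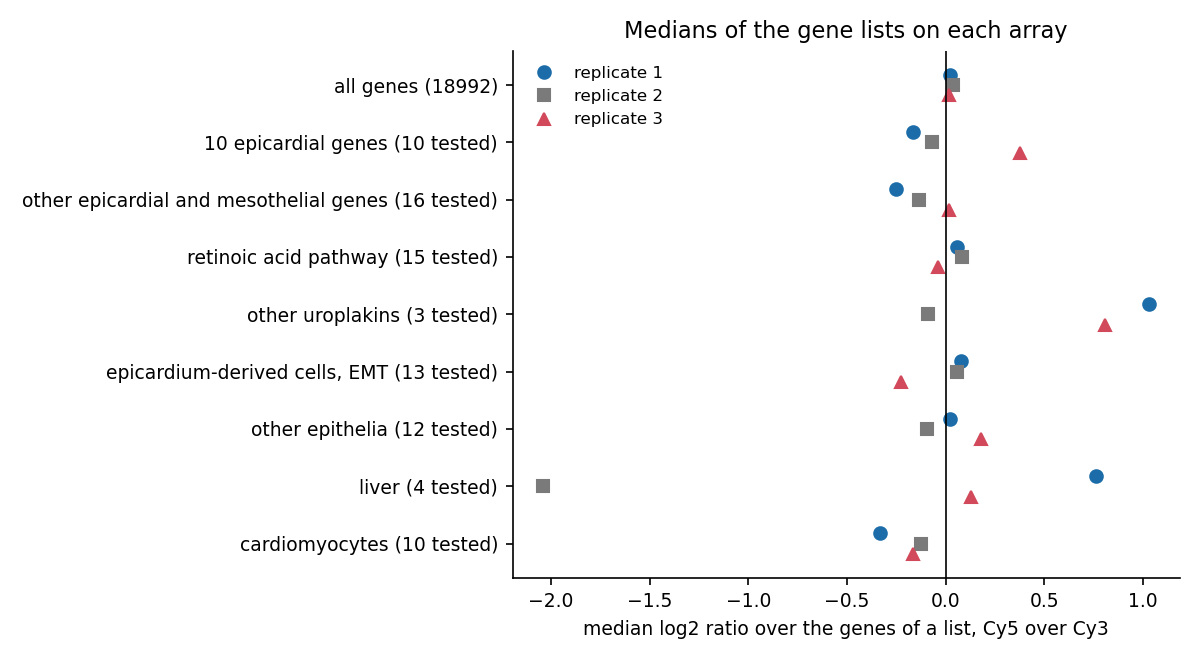
Median log2 ratio (horizontal axis) over the tested genes of each list, 1 probe a gene, on replicates 1, 2 and 3, with the number of genes tested in brackets and the median of all 18992 genes on top. The 10 epicardial genes go from -0.17 and -0.07 to 0.37, and the 4 liver genes reach -2.04 on replicate 2.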

How the data were processed

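RNA of 3 pools labelled Lrrc10-/- (Cy5) and of wild-type pools (Cy3) had been hybridised to 3 two-colour arrays. The deposited scanner files hold spot intensities in both channels and log10 ratios, made by the authors with Agilent Feature Extraction; per the file headers, its version was 9.1.3.1 (scanner G2505B) on replicate 1, but 10.7.3.1 (scanner G2505C) on the other arrays. That software had subtracted background, removed spatial trends and normalized the dyes to give the processed intensities. The deposited series table of log10 ratios equalled the scanner files spot by spot (largest difference 0), with medians of -0.009602, -0.00805 and 0, and so shares their direction, Cy5 over Cy3.

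Here mean intensities were corrected with normexp on the median local background (offset 50), turned into log2 ratios and normalized by loess within each array in limma 3.58.1 (R 4.3.3), with control spots at weight 0. Spots flagged as non-uniform were left out and spots of 1 probe averaged. Testing was limited to the 28330 of 41174 probes whose signal was well above background on all 3 arrays in at least 1 channel, which all 12 epicardial probes passed in both. Ratios were tested against 0 with limma (intercept, eBayes, two-sided), with Benjamini-Hochberg adjustment over all tested probes and a threshold of 0.05. The number of arrays limits the precision. The study's methods call the arrays independent biological replicates of pooled littermate hearts. The row trend was a loess of the ratio on the row number (span 0.3), chosen after seeing the data. Single-channel levels came from Aquantile scaling. A gene stands for its tested probe of highest mean intensity. Symbols were updated through RefSeq accessions (26933 of 27730 matched), and positions are those of the files (mm9). The test was tried on simulated ratios with known shifts.

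The named genes are the 10 epicardial genes with every probe, Lrrc10, Eif2s3y and Xist, and of each list the called genes and the 2 (4 for the other epicardial and the retinoic acid genes) of largest mean ratio in 1 direction on all arrays, without those saturated in both channels on all 3 arrays. Krt5 (beside Krt14), Rspo1 and Rarg were added outside this rule. The epicardial genes, the 8 lists (written from general knowledge) and the tests were chosen with earlier results of these data known. The study's own selection step was not rerun here. Alternatives covered background correction, normalization, scaling, filters on dim and non-uniform spots, the methods' t-test, an intensity trend, array weights, software version as a block and leaving out each array.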

Additional observations from a re-analysis of the deposited data

How the results depend on the processing

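No epicardial probe was called under any of the 16 alternatives (lowest adjusted p 0.0749, limma, for Msln without replicate 3), and of 192 probe values 176 kept their sign and 16 turned. The filters on dim spots, the t-test and the intensity trend leave each ratio as it was. Keeping non-uniform spots did not move the epicardial ratios, and the series table repeats the software's signals. Many of the 176 kept signs therefore could not turn and say nothing about stability. Among single arrays left out, which leaves 2 ratios and 1 degree of freedom before pooling, Wt1 ranged from -0.17 to 0.13, Tbx18 (A_51_P438711) from -0.10 to 0.11, Upk3b from -0.11 to 0.19, Upk1b from -0.14 to 0.19, Krt8 (A_51_P242400) from -0.013 to 0.45 and Krt18 from -0.13 to 0.0030. Upk1b was -0.039 in the software's signals and in the series table. With median centring Wt1 was -0.041, Upk3b -0.023 and Upk1b -0.014. With array weights (0.634 for replicate 3) Wt1 was -0.051, Tbx18 (A_51_P438711) 0.030 and Upk1b -0.017, and with the software version as a block Wt1 was -0.021 and this Tbx18 probe 0.028. The causes were not tested.

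Over all probes, the 395 called higher became 0 with the software's signals, the series table, scaling and the t-test, 1 without background correction and with the block, 145 with no filter, and 1 to 1556 without single arrays (1556 without replicate 3). The 1 called lower became 0 in those settings and with the row trend removed, 2 with median centring, 3 with an intensity trend, 11 with array weights, and 0 to 248 without single arrays. Of the other lists the 1 call became 0 with the software's signals, the series table, no background correction, scaling, no filter, the t-test and the block, and 0 to 5 without single arrays. Lrrc10 kept its direction but lost its call with the software's signals and the series table (5.213, adjusted p = 0.270), scaling (4.616, adjusted p = 0.425) and the t-test (4.408, adjusted p = 0.504). Each ratio already pairs the pools of 1 array.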

Other observations

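Of the 395 probes called higher over the whole array, 348 (88.1%) were printed above the middle row, where 50.5% of the tested probes lay. With the row trend removed 293 were called higher, 281 of them shared with the 395, and 82.6% lay above the middle row. None of these is an epicardial probe.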
